A study of Homo sapiens with 12 samples.

Results

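Antisense long noncoding RNAs are transcripts made from the strand opposite to another gene, and most carry that gene's symbol followed by -AS. The 200 members described here came from a table of read counts by gene symbol in LNCaP cells. Of its 36137 symbols, 908 end in -AS with or without a number, and the members are the 200 of these with the largest sum of counts over 12 libraries. They held 92.0% of all counts on the 908 rows. Of the 908, 471 had enough counts to be tested, all 200 members among them, and the other 271 tested antisense rows serve as the nearest comparison. The last 2 members, KANSL1-AS1 and NDUFA6-AS1, had sums of 1146 and 1137 counts, while OR2A1-AS1 and CHKB-AS1 just outside had 1120 and 1116. The sums chose the members, so their levels are a description with no test.

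LNCaP is an established androgen-responsive line of human prostate cancer. The cells were first given either an siRNA against PXN, the gene of the focal adhesion adaptor paxillin, or a non-specific siRNA (48 h). They then spent 12 h in medium without serum and 24 h with dihydrotestosterone (DHT, 2.5 nM) or with ethanol as its vehicle. This gave 4 groups of 3 libraries: non-specific siRNA with vehicle, non-specific siRNA with DHT, PXN siRNA with vehicle and PXN siRNA with DHT. Every group therefore shares the cell line, a transfection and the starvation, and the vehicle groups are starved cells, not cells in full medium. The labels name neither the number of PXN siRNAs nor their sequences, so loss of paxillin and any other effect of the siRNA cannot be told apart.

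Antisense RNAs arise in several arrangements. A head-to-head RNA starts close to its partner on the other strand, often at one shared promoter, and either runs away from it or across its start, whereas a tail-to-tail RNA overlaps the partner's 3′ end and a contained RNA lies wholly inside it. Some act on their neighbour, by guiding chromatin proteins, by base pairing with its mRNA or through the act of transcription, others work elsewhere as sponges for microRNAs or as scaffolds, and many have no assigned function. In prostate cancer cells the best known is CTBP1-AS, an androgen-induced antisense RNA that opposes the corepressor gene CTBP1.

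The libraries held 34321000 to 38633456 counts, so that 1 CPM (a count scaled to library size by the TMM method) stood for 33.7 to 38.3 counts. Members took 0.287 to 0.300% of the counts in the 6 libraries with non-specific siRNA and 0.321 to 0.326% in the 6 with PXN siRNA. The luminal markers KLK3, KLK2, HOXB13, KRT8, KRT18, FOLH1 and TMPRSS2 were all present. Their summed level was 3413 to 3957 CPM with non-specific siRNA and vehicle, 5707 to 5909.5 CPM with non-specific siRNA and DHT, 2414 to 2742 CPM with PXN siRNA and vehicle, and 2883 to 3267 CPM with PXN siRNA and DHT. The summed basal markers (KRT5, KRT14, TP63) stayed at or below 0.567 CPM and the summed leukocyte markers (PTPRC, CD68) at or below 0.218 CPM. Endothelial markers (VWF, PECAM1) summed to 12.8 to 14.98 CPM with non-specific siRNA and vehicle, 15.1 to 18.9 CPM with non-specific siRNA and DHT, 14.8 to 18.6 CPM with PXN siRNA and vehicle and 17.3 to 22.1 CPM with PXN siRNA and DHT, with PECAM1 at most 0.0829 CPM. Stromal markers summed to 25.6 to 30.8 CPM or 28.2 to 32.8 CPM with non-specific siRNA (DHT or vehicle) and to 36.1 to 44.1 CPM with PXN siRNA, most of it COL1A1, while DCN was at most 0.0553 CPM. The luminal, stromal and endothelial sums differed between groups, and their part in the results below was not tested. KLK3 alone had means of 649, 2235, 140 and 584 CPM in the 4 groups, in the order of the luminal sums. All libraries come from 1 cultured line, so the sums give RNA levels in it and no shares of cell types. In bulk RNA, a change in all cells and a change in some of them cannot be told apart.

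Gene positions are those of GENCODE 29 (GRCh38), and the authors may have counted on another annotation. Of the members 198 had a position, 177 by their symbol and 21 by an older one. With the gene named before -AS, 100 were head to head (start sites at most 2000 bases apart), 37 were tail to tail, 27 were contained, 29 overlapped in another way, 1 shared the gene model of its partner, 3 had no usable pair of positions and 3 had no partner in the table. By the outermost annotated start sites, 41 of the 100 head-to-head members run away from their partner and 59 run across its start. Annotated exons of 126 members overlapped exons of the sense gene, and in these bases reads of both can only be separated by strand. The library kit keeps the strand, but no source used here states whether counting used it, so levels in overlapping exons are less certain.

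Head-to-head pairs are the most frequent arrangement, and 4 promoter windows are printed because their antisense and sense genes moved together, apart or one without the other. Each window runs 5′ to 3′ on the strand of the antisense RNA, from 250 bases before to 50 after a start site (RefSeq, GRCh38.p14). Capitals mark the CCAAT box (CCAAT), the core bound by ETS factors (CCGGAA) and the GC box (GGGCGG), each searched on both strands. In capitals these are letters that match, not sites shown to be bound. 
ZNF528-AS1 at chr19:52397708-52398007, minus strand: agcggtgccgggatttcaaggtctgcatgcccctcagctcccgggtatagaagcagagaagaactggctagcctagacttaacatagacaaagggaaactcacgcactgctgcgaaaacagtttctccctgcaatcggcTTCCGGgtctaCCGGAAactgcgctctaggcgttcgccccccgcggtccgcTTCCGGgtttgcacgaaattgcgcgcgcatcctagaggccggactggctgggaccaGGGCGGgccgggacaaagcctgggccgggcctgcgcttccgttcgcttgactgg
MNX1-AS1 at chr7:157010607-157010906, plus strand: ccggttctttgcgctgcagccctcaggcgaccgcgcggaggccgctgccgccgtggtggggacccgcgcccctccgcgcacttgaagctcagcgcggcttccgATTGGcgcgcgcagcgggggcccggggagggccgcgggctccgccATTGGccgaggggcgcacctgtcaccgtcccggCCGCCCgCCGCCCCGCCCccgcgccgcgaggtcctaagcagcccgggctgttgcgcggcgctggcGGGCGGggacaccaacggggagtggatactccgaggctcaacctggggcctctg
ARHGEF26-AS1 at chr3:154121161-154121460, minus strand: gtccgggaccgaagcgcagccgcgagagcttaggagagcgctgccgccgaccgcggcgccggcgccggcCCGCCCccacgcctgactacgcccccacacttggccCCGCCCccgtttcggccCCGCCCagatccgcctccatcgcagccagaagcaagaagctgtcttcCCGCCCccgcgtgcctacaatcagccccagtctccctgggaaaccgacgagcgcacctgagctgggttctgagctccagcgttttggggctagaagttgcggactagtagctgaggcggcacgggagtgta
STARD4-AS1 at chr5:111511976-111512275, plus strand: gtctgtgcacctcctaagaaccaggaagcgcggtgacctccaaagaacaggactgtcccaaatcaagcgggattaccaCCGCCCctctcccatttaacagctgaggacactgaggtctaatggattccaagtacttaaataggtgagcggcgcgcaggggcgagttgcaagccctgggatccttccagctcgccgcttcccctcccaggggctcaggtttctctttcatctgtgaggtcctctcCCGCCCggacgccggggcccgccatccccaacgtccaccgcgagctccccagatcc

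The ZNF528-AS1 window holds 3 ETS cores and 1 GC box and shares 191 of its 300 bases with the window of ZNF528 on the other strand, whose start lies 90 bases away. The MNX1-AS1 window holds 2 CCAAT boxes and 4 GC boxes, of which neighbours overlap, and shares 293 bases with a window of MNX1. The ARHGEF26-AS1 window holds 4 GC boxes and shares 279 bases with a window of ARHGEF26. The STARD4-AS1 window holds 2 GC boxes and shares none with that of STARD4, whose start is 311 bases away. STARD4-AS1 and STARD4 thus run across each other's start, whereas the other printed members run away from their partner in RefSeq. RefSeq gave 161 windows for 126 members. CCGGAA stood in 28.0% of these and in 17.2% of all 35116 windows, and GGGCGG in 57.8% and 45.0%. The CCAAT box stood in 25.5% against 34.6%. The cell cycle homology region TTTGAA stood in 5.59% against 15.2%. These shares describe letters in the windows and were not tested.

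Most members were low. Their mean over 12 libraries lay between 2.63 and 338 CPM with a median of 6.51 CPM, against 12.7 CPM for all tested genes, and 133 of 200 lay between 1 and 10 CPM. LRRC75A-AS1, a host of small nucleolar RNAs, alone held 10.9% of the members' counts, and the first 10 members held 39.3%. Among the 192 members whose sense gene was tested, the median antisense level was 19.1% of the sense level in CPM and 35.0% in CPM per kilobase of exon. In CPM 46 members lay above their sense gene, and per kilobase 58 of 189 did.

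**Figure D1:**
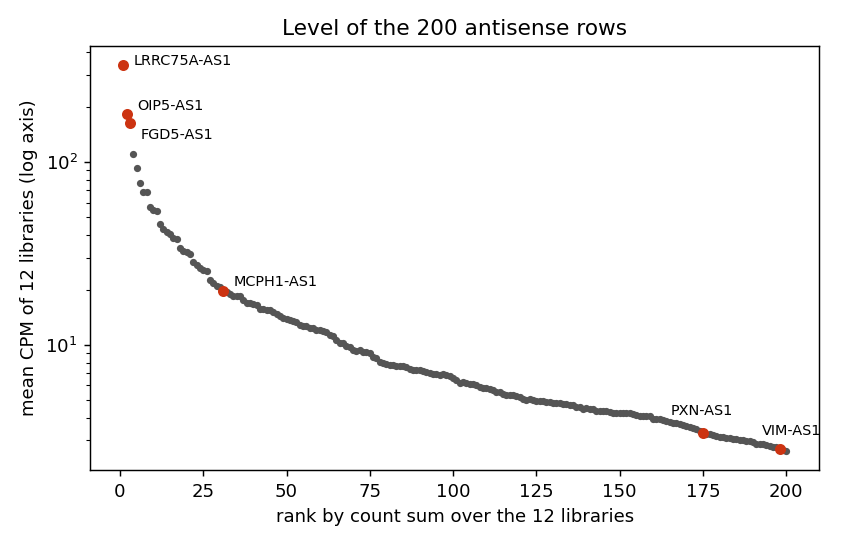
Mean level of each of the 200 antisense rows over 12 libraries in CPM (log axis) against its rank by count sum, 1 point per row, with 6 rows in red and named. Levels fall from 338 CPM for LRRC75A-AS1 to 2.63 CPM, and most rows lie below 10 CPM.

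The member opposite the siRNA target is PXN-AS1. It lies at chromosome 12 from 120201291 to 120213138 on the plus strand, tail to tail with PXN, the siRNA target, and overlaps it by 2700 bases, 918 of them exonic in both. PXN-AS1 measured 3.96, 3.98 and 4.2 CPM with non-specific siRNA and vehicle and 2.42, 2.85 and 2.93 CPM with PXN siRNA and vehicle. Under DHT it measured 3.83, 3.13 and 4.37 CPM and 2.71, 2.58 and 2.79 CPM. The PXN siRNA libraries lay below all others, with log2 changes of -0.56 ± 0.14 (SE, edgeR adjusted p = 0.00446) and -0.49 ± 0.14 (SE, edgeR adjusted p = 0.0112). The second call was lost without replicate 3 of non-specific siRNA with DHT (-0.39, edgeR adjusted p = 0.0543). PXN itself measured 112, 106 and 108 CPM and 15.2, 21.2 and 14.9 CPM under vehicle and 113, 99.7 and 104 CPM and 19.96, 18.1 and 16.6 CPM under DHT. It fell by 2.66 ± 0.11 and 2.54 ± 0.11 (SE) on the log2 scale, and the ratio of PXN-AS1 to PXN, the difference of their log2 CPM with 0.5 CPM added to each, rose by 2.15 ± 0.15 (limma adjusted p = 1.28e-08) and 2.10 ± 0.15 (limma adjusted p = 1.98e-08). Without the strand setting, the part of the PXN-AS1 counts that came from PXN reads in the shared exons was not tested.

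Whether PXN siRNA changed the members was tested with edgeR's quasi-likelihood test over all 18468 tested genes, with calls at a Benjamini-Hochberg adjusted p under 0.05. Under vehicle 92 of 200 members were called, 56 higher and 36 lower, and 108 did not pass. Of all tested genes 50.2% were called, 23.9% higher and 26.3% lower, so members (46.0% called) were called about as often as genes at large, with a larger share of the calls higher (60.9% against 47.7%). Under DHT 94 members were called, 58 higher and 36 lower, beside a background of 51.8%, 25.0% higher and 26.7% lower. The median log2 change was 0.039 under vehicle and 0.087 under DHT for members, and 0.018 and 0.027 for all tested genes.

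Level goes with direction in this table. Among tested genes of 1 to 10 CPM, 65.2% of the calls under vehicle and 69.1% of those under DHT were higher, and among genes over 10 CPM 35.7% and 35.1% were. For the 133 members of 1 to 10 CPM the shares were 59.6% and 61.8%, and for the 67 members over 10 CPM they were 62.5% and 61.5%. Upper-quartile scaling shifted the median of all genes to 0.12 under vehicle and 0.13 under DHT, and 71.1% and 72.9% of the members' calls were then higher, beside 60.2% and 60.7% of all calls. The 271 lower tested antisense rows were called 67 times under vehicle (52 higher, 15 lower) and 86 times under DHT (69 higher, 17 lower). That is 24.7% and 31.7% of them, beside 46.0% and 47.0% of the members, and 77.6% and 80.2% of their calls were higher. The part of their lower level in this difference was not tested.

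Both siRNA contrasts were measured in separate libraries. Of 56 members higher under vehicle and 58 higher under DHT, 46 were in both lists, 82.1% of the first and 79.3% of the second. Of 36 lower in each, 31 were shared, 86.1% of each list, and no member was called in opposite directions. The sharing was not counted over all tested genes, of which 50.2% and 51.8% were called. It is therefore no result about the members in particular. Groups did not overlap for 91 of the 92 calls under vehicle and 92 of the 94 under DHT, beside 96.4% and 97.1% of all genes called. With uncalled members included, 112 of 200 (56.0%) did not overlap in each contrast, beside 56.9% and 59.9% of all tested genes. At least a 2-fold change was reached by 8 higher and 4 lower calls under vehicle and by 9 higher and 1 lower call under DHT. The background was 7.8% higher and 3.91% lower under vehicle and 8.83% and 4.04% under DHT. The members were chosen on all libraries together: 5 of them (SEMA6A-AS1, DLGAP1-AS2, LGALS8-AS1, CCDC144NL-AS1 and VIM-AS1) would rank below 200 on the libraries with non-specific siRNA alone, and 8, among them TMPO-AS1 and FAM13A-AS1, on those with PXN siRNA alone. Over the 187 members inside both rankings, 85 were called under vehicle (51 higher, 34 lower) and 86 under DHT (53 higher, 33 lower), and 2-fold calls numbered 4 higher and 3 lower under vehicle and 5 higher and 0 lower under DHT.

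**Figure D2:**
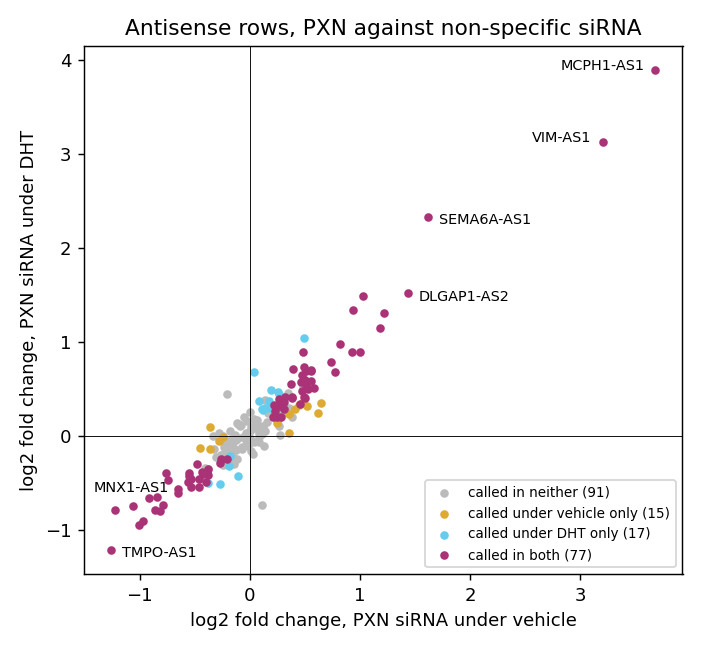
Log2 fold change of PXN against non-specific siRNA under vehicle (x axis) and under DHT (y axis) for the 200 antisense rows, coloured by edgeR calls. The 77 rows called in both lie in the upper right or lower left, with MCPH1-AS1 and VIM-AS1 farthest out on the high side and TMPO-AS1 on the low side.

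The first 5 by count sum were LRRC75A-AS1, OIP5-AS1, FGD5-AS1, FAM83H-AS1 and GAS6-AS1. OIP5-AS1, also known as cyrano, is a conserved RNA that controls the turnover of a microRNA. It measured 205, 194 and 222 CPM with non-specific siRNA and vehicle and 144, 155 and 154 CPM with PXN siRNA and vehicle. Under DHT it measured 213, 225 and 233 CPM and 153, 152 and 155 CPM. Every PXN siRNA library lay below every library with non-specific siRNA, and OIP5-AS1 fell by log2 0.46 ± 0.062 (SE, edgeR adjusted p = 3.06e-05) under vehicle and 0.54 ± 0.062 (edgeR adjusted p = 6.05e-06) under DHT. Its tail-to-tail partner OIP5, a centromere protein gene, fell further, by log2 2.05 ± 0.18 (edgeR adjusted p = 5.44e-07) under vehicle. FGD5-AS1 rose from 152, 145 and 155 CPM to 183, 174 and 178 CPM under vehicle, a log2 change of 0.24 ± 0.057 (SE, edgeR adjusted p = 0.00255). Under DHT its change of 0.20 ± 0.057 (edgeR adjusted p = 0.00802) lost the call without replicate 2 of non-specific siRNA with DHT (0.15, edgeR adjusted p = 0.0845) or replicate 1 of PXN siRNA with DHT (0.14, edgeR adjusted p = 0.0957). That call was also lost with no low-count filter (0.18, edgeR adjusted p = 0.0669). The partner FGD5 had at most 0.0892 CPM in any library.

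LRRC75A-AS1 measured 361, 353 and 358 CPM with non-specific siRNA and DHT and 287, 333 and 307 CPM with PXN siRNA and DHT, a log2 change of -0.21 ± 0.074 (SE, edgeR adjusted p = 0.0269). The groups did not overlap, but the call was lost without replicate 1 of PXN siRNA with DHT (-0.18, edgeR adjusted p = 0.0786), without its replicate 3 (-0.22, edgeR adjusted p = 0.051) and with upper-quartile scaling (-0.11, edgeR adjusted p = 0.213). Under vehicle its change was -0.18 ± 0.074 (SE, edgeR adjusted p = 0.0542). FAM83H-AS1 measured 121, 134 and 129 CPM and 93.8, 109 and 105 CPM under DHT and fell by log2 0.32 ± 0.076 (edgeR adjusted p = 0.00263), while under vehicle its change of -0.19 ± 0.076 did not pass (edgeR adjusted p = 0.0539). GAS6-AS1 lay at 73.7 to 113 CPM in the 12 libraries and passed in no contrast without a block for the replicate number. With the block it fell under vehicle (log2 -0.18, edgeR adjusted p = 0.049992) and with DHT in cells with non-specific siRNA (log2 -0.27, edgeR adjusted p = 0.0249). The block also called the falls of LRRC75A-AS1 (log2 -0.18, edgeR adjusted p = 0.0191) and FAM83H-AS1 (log2 -0.19, edgeR adjusted p = 0.00265) under vehicle.

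The highest rise was that of MCPH1-AS1, which runs tail to tail with the microcephaly gene MCPH1 and shares 406 exonic bases with it. With vehicle it measured 2.68, 3.25 and 2.42 CPM with non-specific siRNA and 40.3, 29.4 and 37.8 CPM with PXN siRNA. Under DHT it measured 2.33, 3.16 and 2.02 CPM and 44.8, 28.9 and 38 CPM. The groups lay far apart, with log2 changes of 3.68 ± 0.19 (edgeR adjusted p = 2.73e-08) and 3.89 ± 0.20 (edgeR adjusted p = 2.41e-08). MCPH1 itself rose by log2 1.11 ± 0.10 (edgeR adjusted p = 8.24e-07) and 1.03 ± 0.10 (edgeR adjusted p = 1.52e-06). The antisense-to-sense ratio rose by 2.37 ± 0.15 (limma adjusted p = 3.93e-09) under vehicle.

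VIM-AS1 lies at chromosome 10 from 17214239 to 17229985 on the minus strand, head to head with VIM, the gene of the intermediate filament vimentin and a marker of mesenchymal cells. With vehicle VIM-AS1 measured 0.845, 0.406 and 0.345 CPM with non-specific siRNA and 6.29, 3.96 and 4.47 CPM with PXN siRNA. VIM measured 6.44, 4.22 and 4 CPM and 40.6, 24.3 and 29.9 CPM in the same libraries. Both genes were several-fold higher in each PXN siRNA library, and replicate 1 was the highest of its group for both in all 4 groups. VIM-AS1 rose by log2 3.20 ± 0.30 (SE, edgeR adjusted p = 1.08e-06) and VIM by 2.69 ± 0.25 (SE, edgeR adjusted p = 1.15e-06) under vehicle, and by 3.13 ± 0.30 (SE, edgeR adjusted p = 1.29e-06) and 2.65 ± 0.25 (SE, edgeR adjusted p = 1.31e-06) under DHT. Their ratio, with 0.5 CPM added to each, changed by -0.18 ± 0.15 (limma adjusted p = 0.379) under vehicle and did not pass. With non-specific siRNA VIM-AS1 lay near the added 0.5 CPM, which understates its rise. As a plain percentage of VIM under vehicle, VIM-AS1 was 13.1, 9.62 and 8.63% with non-specific siRNA. With PXN siRNA it was 15.5, 16.3 and 14.9%, higher in every library. The direction of an unequal change thus depended on the added CPM. Their spans share 1727 bases, 641 of them exonic in both. By count sum VIM-AS1 ranked 355 on the libraries with non-specific siRNA alone and 133 on those with PXN siRNA alone. It is thus a member only through the libraries where it is high.

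SEMA6A-AS1 lies inside SEMA6A, the gene of a transmembrane semaphorin. It measured 2.01, 2.54 and 2.3 CPM with non-specific siRNA and vehicle and 7.96, 5.79 and 7.37 CPM with PXN siRNA and vehicle, and 1.53, 1.72 and 1.22 CPM and 8.37, 5.46 and 8.65 CPM under DHT. It rose by log2 1.62 ± 0.19 (SE, edgeR adjusted p = 9.49e-06) and 2.33 ± 0.20 (SE, edgeR adjusted p = 6.13e-07). SEMA6A rose by log2 0.83 ± 0.17 and 1.25 ± 0.18 (SE), and the ratio rose as well, by 0.62 ± 0.15 (limma adjusted p = 0.00332) under vehicle. LGALS8-AS1 lies inside LGALS8, the gene of galectin-8, a lectin that binds integrins. It rose from 2.3, 2 and 1.78 CPM to 5.04, 3.58 and 5.54 CPM under vehicle, a log2 change of 1.22 ± 0.18 (SE, edgeR adjusted p = 6.14e-05), and LGALS8 rose by 1.39 ± 0.089 (SE, edgeR adjusted p = 8.01e-08). SEMA6A-AS1 and LGALS8-AS1 are members only through the PXN siRNA libraries, where they are high. They ranked 94 and 141 on these alone, and 224 and 223 on those with non-specific siRNA alone.

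DLGAP1-AS1 and DLGAP1-AS2 are separate RNAs within DLGAP1, the gene of a scaffold protein of synapses, which had at most 0.0553 CPM in any library. DLGAP1-AS2 rose from 2.65, 2.3 and 1.99 CPM to 7.68, 5.52 and 5.54 CPM under vehicle, a log2 change of 1.43 ± 0.18 (SE, edgeR adjusted p = 1.72e-05). DLGAP1-AS1 rose from 4.58, 4.17 and 4.23 CPM to 8.96, 6.78 and 9.12 CPM, a log2 change of 0.94 ± 0.16 (SE, edgeR adjusted p = 0.000232). Both therefore rose while the named partner gave nearly no counts. DLGAP1-AS2 is a member only through the PXN siRNA libraries, where it is high (rank 112 on these alone, 209 with non-specific siRNA alone). CBR3-AS1 rose from 11.1, 15.4 and 12.5 CPM to 29.8, 30.5 and 28.6 CPM under vehicle, a log2 change of 1.18 ± 0.11 (SE, edgeR adjusted p = 7.9e-07). Its partner CBR3, a carbonyl reductase gene, changed by 0.16 ± 0.18 (SE, edgeR adjusted p = 0.489) in those libraries and rose by 0.74 ± 0.19 (SE, edgeR adjusted p = 0.00424) under DHT. KRTAP5-AS1, at a cluster of keratin-associated protein genes and with no single partner row, rose by log2 1.03 ± 0.16 (SE, edgeR adjusted p = 9.41e-05) and 1.49 ± 0.16 (SE, edgeR adjusted p = 3.96e-06).

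The largest fall was that of TMPO-AS1, at chromosome 12 from 98512973 to 98516422 on the minus strand, head to head with TMPO, the gene of the nuclear lamina proteins called lamina-associated polypeptide or thymopoietin. TMPO-AS1 measured 4.81, 4.17 and 4.8 CPM with non-specific siRNA and vehicle and 2.23, 1.96 and 1.57 CPM with PXN siRNA and vehicle, and 4.31, 4.04 and 3.74 CPM and 1.97, 1.8 and 1.44 CPM under DHT. Both contrasts separated the groups, with log2 changes of -1.26 ± 0.16 (SE, edgeR adjusted p = 1.77e-05) and -1.21 ± 0.16 (SE, edgeR adjusted p = 2.68e-05). TMPO measured 124, 128 and 141 CPM and 41.7, 59 and 44.9 CPM under vehicle and fell by log2 1.43 ± 0.11 (SE, edgeR adjusted p = 1.57e-07). The ratio of the pair changed by 0.36 ± 0.17 (limma adjusted p = 0.101) under vehicle and 0.33 ± 0.17 (limma adjusted p = 0.121) under DHT, so a difference between the falls was not shown without the replicate block. With it the ratio was called higher, by 0.36 (limma adjusted p = 0.0327) under vehicle and 0.33 (limma adjusted p = 0.0435) under DHT. The added 0.5 CPM understates the fall of the low TMPO-AS1 and so raises this ratio. As a plain percentage of TMPO under vehicle, TMPO-AS1 was 3.88, 3.25 and 3.42% with non-specific siRNA. With PXN siRNA it was 5.35, 3.33 and 3.49%, and the groups overlapped. TMPO-AS1 is a member only through the libraries with non-specific siRNA, where it is high (rank 138 on these alone, 237 with PXN siRNA alone).

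For MNX1-AS1 and FBXL19-AS1, also among the large falls, the partner was not called under vehicle without the replicate block. MNX1-AS1, head to head with the motor neuron homeobox gene MNX1, measured 7.46, 8.47 and 7.94 CPM and 2.94, 4.01 and 3.29 CPM under vehicle, a log2 change of -1.22 ± 0.15 (SE, edgeR adjusted p = 1.16e-05). MNX1 measured 3.82, 4.9 and 4.34 CPM and 3.27, 3.69 and 3.5 CPM, a change of -0.32 ± 0.18 (SE, edgeR adjusted p = 0.145) that passed with the block (log2 -0.32, edgeR adjusted p = 0.048) but not without it, and the ratio fell by 0.84 ± 0.12 (limma adjusted p = 3.72e-05). FBXL19-AS1, head to head with the F-box gene FBXL19, went from 25.3, 24.2 and 23.2 CPM to 11.9, 14.1 and 10.2 CPM, a log2 change of -1.01 ± 0.10 (SE, edgeR adjusted p = 2.07e-06), against -0.061 ± 0.087 (SE, edgeR adjusted p = 0.583) for FBXL19. Here too the ratio fell, by 0.93 ± 0.13 (limma adjusted p = 4.41e-05).

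LPP-AS2, head to head with LPP, a zyxin-family gene of focal adhesions, went from 13.7, 12.1 and 12.8 CPM to 7.27, 6.68 and 5.86 CPM under vehicle, a log2 change of -0.96 ± 0.12 (SE, edgeR adjusted p = 1.79e-05). LPP changed by -0.11 ± 0.053 (SE, edgeR adjusted p = 0.104) in those libraries. VPS9D1-AS1 fell from 26.5, 35.1 and 30.6 CPM to 13.8, 21.9 and 15.2 CPM, a log2 change of -0.86 ± 0.18 (SE, edgeR adjusted p = 0.000972), and its host gene VPS9D1 changed by 0.081 ± 0.16 (SE, edgeR adjusted p = 0.694). MAFG-AS1 fell by log2 0.91 ± 0.14 (SE, edgeR adjusted p = 0.000118). NCBP2-AS2, whose start lies 26 bases from that of the cap-binding gene NCBP2, is annotated as protein-coding and encodes a small mitochondrial protein. It fell by log2 0.82 ± 0.084 (edgeR adjusted p = 2.44e-06) and NCBP2 by 0.57 ± 0.065 (edgeR adjusted p = 6.61e-06). These 4 members also fell under DHT, by 0.66 to 0.91 on the log2 scale. There LPP (log2 -0.16 ± 0.053, SE, edgeR adjusted p = 0.0242) and NCBP2 (-0.47 ± 0.065, edgeR adjusted p = 3.21e-05) were called lower. MAFG was called higher (0.21 ± 0.064, edgeR adjusted p = 0.0142), and VPS9D1 was not called (0.18 ± 0.16, edgeR adjusted p = 0.351).

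Members and sense genes were compared in 192 pairs with 188 distinct sense genes. Under vehicle both genes were called in 57 pairs. In 20 both rose, in 15 both fell, in 13 the antisense RNA rose and the sense gene fell, and in 9 the reverse was seen. In 30 pairs only the antisense RNA was called, in 51 only the sense gene, and in 54 neither. Under DHT both were called in 62 pairs, 25 both higher, 15 both lower, 12 with the antisense RNA higher and the sense gene lower, and 10 the reverse. The same-direction lists of both contrasts shared 30 pairs (of 35 and 40) and the opposite-direction lists shared 16 (of 22 and 22). Without replicate 3 of non-specific siRNA with vehicle, opposite pairs under vehicle numbered 12, and under DHT they numbered 12 without replicate 1 and 13 without replicate 3 of PXN siRNA with DHT. Across the 192 pairs the log2 changes had a Pearson correlation of 0.34 and a Spearman correlation of 0.19 under vehicle. Pairs share libraries and neighbourhoods and some share exons, so these are descriptions across genes.

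By arrangement, 15 of 26 head-to-head pairs called in both genes under vehicle moved in the same direction and 11 in opposite directions. Tail-to-tail pairs gave 11 and 5, contained pairs 4 and 4, and other overlapping pairs 5 and 2. Pearson correlations under vehicle were 0.35 over the 100 head-to-head pairs, 0.40 over the 36 tail-to-tail pairs and 0.37 over the 24 contained pairs. Over the 28 other overlapping pairs the Pearson correlation was 0.091. Spearman correlations, in the same order, were 0.10, 0.35, 0.14 and 0.15. By rank, the correlations of head-to-head and contained pairs were thus lower than their Pearson values. The classes hold few called pairs each and were not tested against each other. The ratio of antisense to sense was tested with limma over all 440 testable pairs of the table. It was called for 91 of the 192 pairs of members under vehicle, 45 higher and 46 lower, beside a background of 38.4%, and for 96 under DHT, 54 higher and 42 lower, beside 40.7%. The 440 pairs include these 192, so the background (169 and 179 calls) holds the members' own calls.

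**Figure D3:**
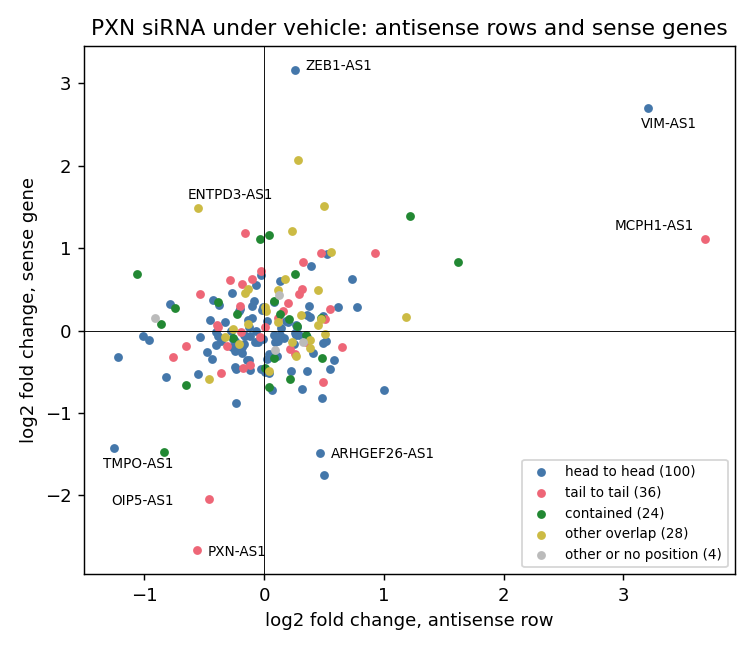
Log2 fold change of PXN siRNA under vehicle for each antisense row (x axis) and its sense gene (y axis), 192 pairs coloured by arrangement in GENCODE 29. VIM-AS1 and MCPH1-AS1 lie in the upper right with their sense genes, PXN-AS1, OIP5-AS1 and TMPO-AS1 in the lower left, and ARHGEF26-AS1 in the lower right.

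STARD4-AS1 starts within 364 bases of STARD4 and runs across its start. STARD4 is a sterol transport gene induced when cells lack cholesterol. STARD4-AS1 measured 3.47, 4.19 and 2.7 CPM with non-specific siRNA and vehicle and 7.49, 6.97 and 6.38 CPM with PXN siRNA and vehicle, and 3.29, 3.57 and 2.82 CPM and 5.96, 6.21 and 5.86 CPM under DHT. STARD4 measured 87.2, 77.4 and 95.3 CPM and 44.5, 55.4 and 57.4 CPM under vehicle. The groups separated in both genes and in opposite ways, with log2 changes of 1.00 ± 0.15 (SE, edgeR adjusted p = 5.89e-05) for STARD4-AS1 and -0.72 ± 0.11 (SE, edgeR adjusted p = 0.00012) for STARD4. Their windows printed above do not overlap, and the ratio rose by 1.65 ± 0.20 (limma adjusted p = 8.57e-06).

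ARHGEF26-AS1 starts within 329 bases of ARHGEF26, a guanine nucleotide exchange factor gene, and their windows overlap as described above. It measured 12.4, 10.8 and 11.3 CPM with non-specific siRNA and vehicle and 15.6, 14.9 and 17.3 CPM with PXN siRNA and vehicle. ARHGEF26 measured 219.8, 230.5 and 226 CPM and 62.1, 104 and 76 CPM. The antisense RNA rose by log2 0.47 ± 0.085 (SE, edgeR adjusted p = 0.00036) and ARHGEF26 fell by 1.48 ± 0.15 (SE, edgeR adjusted p = 2.04e-06). By contrast, ZNF528-AS1 and the zinc finger gene ZNF528, which also share a window, both rose, by 0.37 ± 0.10 (SE, edgeR adjusted p = 0.0071) and 0.29 ± 0.067 (SE, edgeR adjusted p = 0.00207), and their ratio changed by 0.068 ± 0.10 (limma adjusted p = 0.645).

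LAMA5-AS1 lies inside LAMA5, the gene of a laminin chain of basement membranes. It fell from 5.42, 6.92 and 6.67 CPM to 2.45, 3.39 and 3.27 CPM under vehicle while LAMA5 went from 133, 177 and 129.6 CPM to 257, 209.7 and 240.3 CPM. The log2 changes were -1.06 ± 0.17 (SE, edgeR adjusted p = 0.000109) and 0.69 ± 0.12 (SE, edgeR adjusted p = 0.000336), and the ratio fell by 1.65 ± 0.18 (limma adjusted p = 2.25e-06). ENTPD3-AS1 fell from 6.94, 6.41 and 6.3 CPM to 4.14, 4.68 and 4.58 CPM, a log2 change of -0.55 ± 0.12 (SE, edgeR adjusted p = 0.00127). Its partner ENTPD3, which encodes an ectonucleotidase, rose from 4.81, 4.19 and 3.8 CPM to 13.8, 9.61 and 12.4 CPM, by 1.48 ± 0.17 (SE, edgeR adjusted p = 5.57e-06). In both pairs every PXN siRNA library lay below every other for the antisense RNA and above for the sense gene.

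PPP3CB-AS1, head to head with the calcineurin gene PPP3CB, rose under DHT by log2 0.89 ± 0.17 (SE, edgeR adjusted p = 0.000529) while PPP3CB fell by 0.84 ± 0.11 (edgeR adjusted p = 1.51e-05). Under vehicle its rise of 0.48 ± 0.17 (edgeR adjusted p = 0.028) lost the call without replicate 1 (0.36, edgeR adjusted p = 0.122) or 3 (0.42, edgeR adjusted p = 0.097) of non-specific siRNA with vehicle and without replicate 2 (0.37, edgeR adjusted p = 0.114) or 3 (0.49, edgeR adjusted p = 0.0533) of PXN siRNA with vehicle. In other pairs only the sense gene was called. MAP3K14, the gene of the kinase NIK, rose by log2 1.19 ± 0.10 (SE, edgeR adjusted p = 3.37e-07) under vehicle while MAP3K14-AS1 changed by -0.16 ± 0.16 (SE, edgeR adjusted p = 0.43), and the ratio fell by 1.33 ± 0.16 (limma adjusted p = 7.81e-06). ZEB1, which drives epithelial-mesenchymal transition, measured 0.0874, 0.162 and 0.0863 CPM with non-specific siRNA and 1.47, 0.861 and 0.784 CPM with PXN siRNA under vehicle, and rose by 3.16 ± 0.43 (SE, edgeR adjusted p = 2.99e-05). ZEB1-AS1 measured 5.77, 4.73 and 6.65 CPM and 7.11, 5.6 and 7.77 CPM and changed by 0.26 ± 0.15 (SE, edgeR adjusted p = 0.157).

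**Figure D4:**
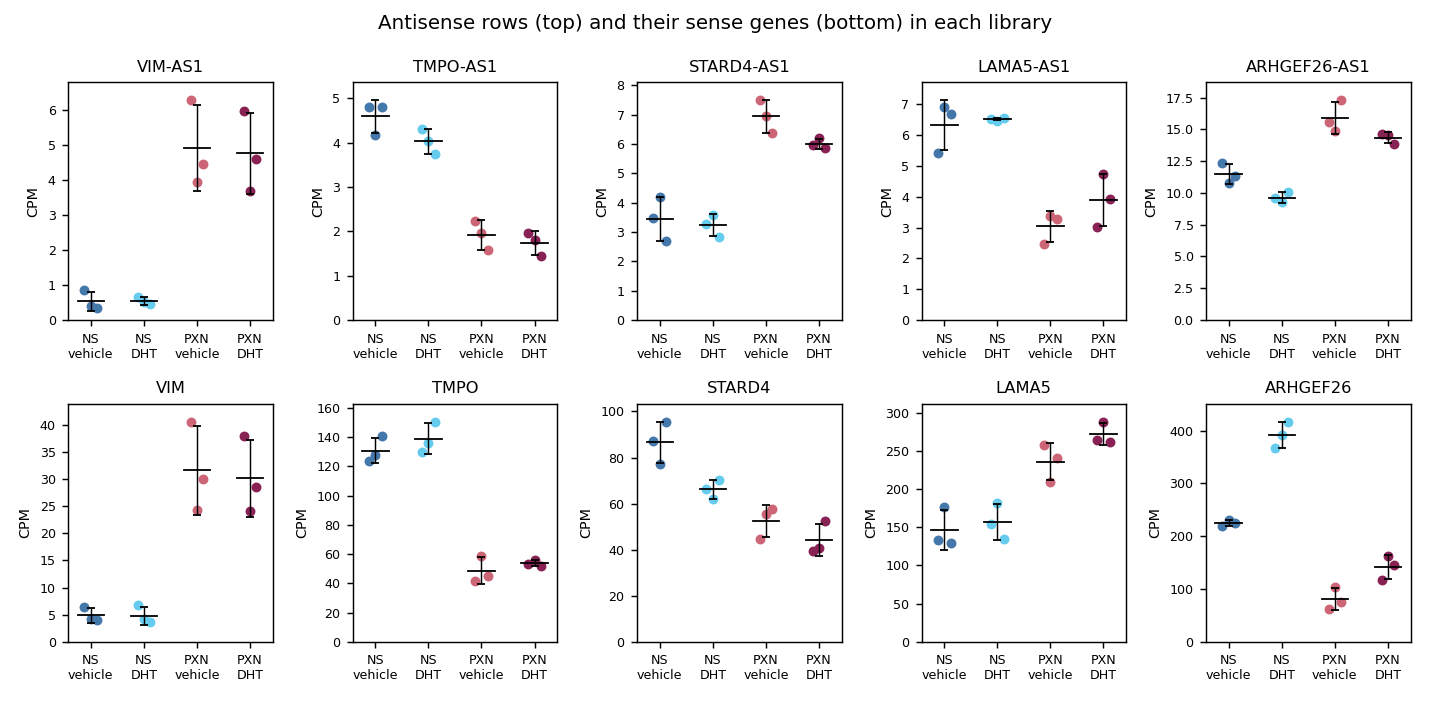
CPM of 5 antisense rows (top) and their sense genes (bottom) in each library; NS is non-specific siRNA, points are libraries, and bars are mean and SD of 3. VIM-AS1 and VIM rise together with PXN siRNA and TMPO-AS1 and TMPO fall together, whereas STARD4-AS1 and ARHGEF26-AS1 rise as their sense genes fall and LAMA5-AS1 falls as LAMA5 rises.

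Gene groups by the function of the sense gene or of the RNA were counted against the same backgrounds. For each group these were 50.2% of all tested genes called under vehicle and 51.8% under DHT. Of 6 members at adhesion and cytoskeleton genes, 4 were called under vehicle, 2 higher (FGD5-AS1, ARHGEF26-AS1) and 2 lower (LAMA5-AS1, PXN-AS1), with a median log2 change of 0.17, and 2 and 2 under DHT with a median of 0.010. Of 5 members at cell-cycle genes, 2 rose (MCPH1-AS1 among them) and 2 fell (TMPO-AS1, OIP5-AS1) in both contrasts, with medians of -0.31 and -0.23. Neither group therefore moved one way. Of the 22 members among characterised antisense RNAs, 3 rose and 8 fell under vehicle (median -0.18) and 4 rose and 10 fell under DHT (median -0.22), beside a median of 0.039 and 0.087 for all members. This list was compiled with results of these data known and its direction is no independent evidence.

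The single member of the immune list, CD27-AS1 beside the gene of a lymphocyte receptor, rose by log2 0.28 ± 0.069 (SE, edgeR adjusted p = 0.00324) under vehicle. Its change of 0.20 ± 0.069 (edgeR adjusted p = 0.0243) under DHT was no longer called in 6 of the 12 fits that leave out 1 library, namely without replicate 1 (0.18, edgeR adjusted p = 0.0761), 2 (0.17, edgeR adjusted p = 0.0921) or 3 (0.18, edgeR adjusted p = 0.0795) of non-specific siRNA with DHT, replicate 3 of PXN siRNA with vehicle (0.18, edgeR adjusted p = 0.0507), and replicate 2 (0.17, edgeR adjusted p = 0.099) or 3 (0.17, edgeR adjusted p = 0.112) of PXN siRNA with DHT. With no low-count filter that change of CD27-AS1 was not called either (0.18, edgeR adjusted p = 0.133). Of 7 members at lipid and metabolic genes, 2 rose and 1 fell under vehicle (median 0.20) and 3 rose and 1 fell under DHT (median 0.28). The background was again 50.2% and 51.8% called. STARD4-AS1 is among them. ATP6V0E2-AS1, at a proton pump gene, rose by 0.38 ± 0.12 (SE, edgeR adjusted p = 0.0146) and 0.42 ± 0.12 (SE, edgeR adjusted p = 0.00794). The first call was lost without replicate 1 of either vehicle group (0.30, edgeR adjusted p = 0.0742 without that of non-specific siRNA and 0.34, edgeR adjusted p = 0.0542 without that of PXN siRNA), and the second without replicate 3 of PXN siRNA with DHT (0.30, edgeR adjusted p = 0.062).

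At zinc finger and other transcription factor genes 16 members were counted, 5 higher and 4 lower under vehicle (median 0.064) and 4 higher and 3 lower under DHT (median 0.064). Of all tested genes 50.2% and 51.8% were called. ZNF528-AS1 and GATA2-AS1 rose and MAFG-AS1 fell in both. GATA2-AS1, beside the gene of a GATA zinc finger factor, rose by 0.27 ± 0.078 (SE, edgeR adjusted p = 0.00971) and 0.39 ± 0.078 (SE, edgeR adjusted p = 0.000726) as GATA2 fell by 0.31 ± 0.063 (edgeR adjusted p = 0.000812) and 0.21 ± 0.063 (edgeR adjusted p = 0.0108). The vehicle groups of GATA2-AS1 overlapped in part, and the call there was lost without replicate 2 of non-specific siRNA with vehicle (0.19, edgeR adjusted p = 0.0746) or replicate 1 (0.20, edgeR adjusted p = 0.0835) or 3 (0.22, edgeR adjusted p = 0.0706) of PXN siRNA with vehicle. Of 3 members at homeobox and T-box loci MNX1-AS1 fell in both contrasts and HOXC13-AS and ZEB1-AS1 passed in neither without the replicate block. With it both rose under DHT, HOXC13-AS (log2 0.45, edgeR adjusted p = 0.0451) and ZEB1-AS1 (log2 0.31, edgeR adjusted p = 0.0378). The 3 androgen-linked members were TMPO-AS1, CTBP1-AS2 and CTBP1-AS. CTBP1-AS2, head to head with CTBP1, fell from 75.7, 71.1 and 76 CPM to 62.4, 61.9 and 60.3 CPM under vehicle, by log2 0.27 ± 0.051 (SE, edgeR adjusted p = 0.000503), and by 0.29 ± 0.051 (edgeR adjusted p = 0.000301) under DHT.

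DHT changed few members. With non-specific siRNA, 5 of 200 passed, 3 higher and 2 lower, while 4.87% of all tested genes were called, 2.72% higher and 2.16% lower. An unadjusted p under 0.05 was seen for 34 members (17.0%) and for 16.6% of all tested genes. FAM13A-AS1, tail to tail with FAM13A, measured 1.69, 2.35 and 1.18 CPM with vehicle and 3.04, 9.05 and 5.2 CPM with DHT, and 2.18, 1.59 and 1.91 CPM and 2.3, 3.91 and 4.2 CPM with PXN siRNA. Replicate 2 with DHT stood highest. It rose by log2 1.72 ± 0.35 (SE, edgeR adjusted p = 0.0103) while FAM13A fell by 0.41 ± 0.086 (SE, edgeR adjusted p = 0.0126), and the ratio rose by 1.81 ± 0.33 (limma adjusted p = 0.00512). The rise lost its call without replicate 3 of non-specific siRNA with vehicle (1.52, edgeR adjusted p = 0.0594) or replicate 2 of non-specific siRNA with DHT (1.24, edgeR adjusted p = 0.055). FAM13A-AS1 is a member only through the libraries with non-specific siRNA (rank 157 on these alone, 203 with PXN siRNA alone).

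CTBP1-AS, at chromosome 4 from 1210120 to 1218591 on the plus strand, measured 8.39, 13.6 and 7.97 CPM with vehicle and 16.5, 21.3 and 17.8 CPM with DHT in cells with non-specific siRNA. With PXN siRNA it measured 14.4, 17.2 and 15.6 CPM and 17.3, 26.9 and 26.8 CPM. Every DHT library lay above every vehicle library of the same siRNA, and it rose by log2 0.89 ± 0.20 (SE, edgeR adjusted p = 0.017) with non-specific siRNA. CTBP1 changed by -0.13 ± 0.055 (SE, edgeR adjusted p = 0.255), and the ratio rose by 1.02 ± 0.17 (limma adjusted p = 0.00296). The call was lost without replicate 1 (0.78, edgeR adjusted p = 0.0707) or 3 (0.76, edgeR adjusted p = 0.0799) of non-specific siRNA with vehicle or replicate 2 of non-specific siRNA with DHT (0.78, edgeR adjusted p = 0.0834). PXN siRNA itself raised CTBP1-AS under vehicle, by 0.65 ± 0.20 (SE, edgeR adjusted p = 0.0136), a call lost without the same replicate 1 (0.52, edgeR adjusted p = 0.0589) or 3 (0.50, edgeR adjusted p = 0.071).

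RAB6C-AS1, head to head with the retrogene RAB6C and annotated as a transcribed pseudogene, measured 24.2, 22.8 and 21.6 CPM with vehicle and 33.4, 36.8 and 38.4 CPM with DHT and rose by log2 0.66 ± 0.12 (SE, edgeR adjusted p = 0.00454). Reads of such a copied sequence can be split with its relatives, so its level is less certain. HOXC13-AS, head to head with the homeobox gene HOXC13, fell from 4.31, 3.81 and 4.2 CPM to 2.67, 1.74 and 1.49 CPM, by log2 1.06 ± 0.19 (SE, edgeR adjusted p = 0.00464). HOXC13 fell with it, by 0.78 ± 0.16 (edgeR adjusted p = 0.00999), and their ratio changed by -0.16 ± 0.16 (limma adjusted p = 0.732). RALY-AS1, head to head with the RNA-binding protein gene RALY, went from 5.92, 5.46 and 4.89 CPM to 4.09, 4.04 and 3.42 CPM, a log2 change of -0.49 ± 0.13 (SE, edgeR adjusted p = 0.0455). Only 7 of 21 other settings kept this call. It was lost with DESeq2 size factors (-0.48, edgeR adjusted p = 0.0506) and limma-voom (-0.49, limma adjusted p = 0.0516). No low-count filter (-0.49, edgeR adjusted p = 0.059) and only the 2 groups compared (-0.48, edgeR adjusted p = 0.0958) lost it too. That call was lost in 9 of the 12 fits without 1 library, lowest without replicate 3 of non-specific siRNA with DHT (-0.41, edgeR adjusted p = 0.224), then without replicate 1 (-0.42, edgeR adjusted p = 0.189), 2 (-0.49, edgeR adjusted p = 0.0859) or 3 (-0.55, edgeR adjusted p = 0.0687) of non-specific siRNA with vehicle, replicate 2 of non-specific siRNA with DHT (-0.52, edgeR adjusted p = 0.12), replicate 2 of PXN siRNA with vehicle (-0.49, edgeR adjusted p = 0.0567) and replicate 1 (-0.49, edgeR adjusted p = 0.056), 2 (-0.49, edgeR adjusted p = 0.0632) or 3 (-0.49, edgeR adjusted p = 0.0688) of PXN siRNA with DHT.

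**Figure D5:**
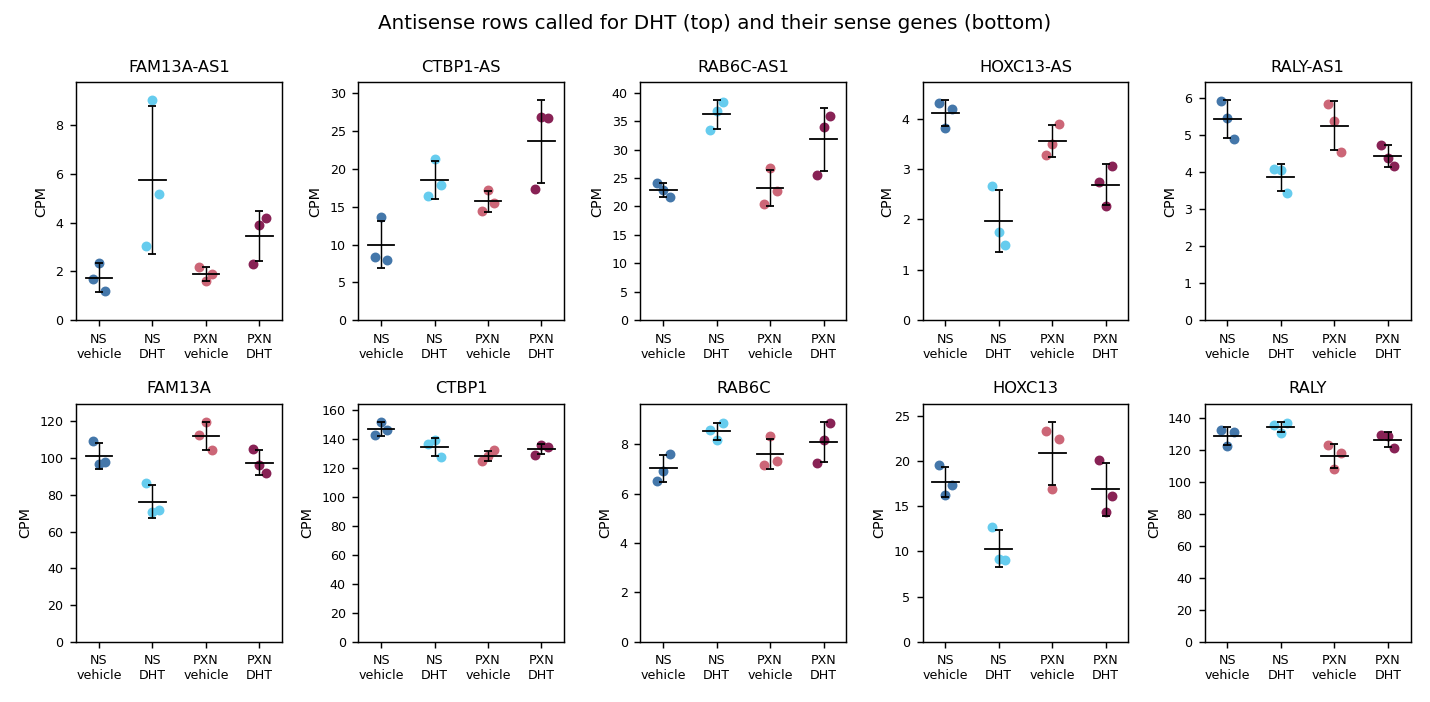
CPM of the 5 antisense rows called for DHT with non-specific siRNA (top) and of their sense genes (bottom) in each library; NS is non-specific siRNA, points are libraries, and bars are mean and SD of 3. FAM13A-AS1, CTBP1-AS and RAB6C-AS1 are higher and HOXC13-AS and RALY-AS1 lower with DHT in cells with non-specific siRNA.

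With the replicate number as a block, since the numbers were taken to pair the libraries, 18 members (9.0%) passed for DHT with non-specific siRNA, 6 higher and 12 lower, beside 12.1% of all tested genes. Beside those above, FAM83H-AS1 and ZMIZ1-AS1 were among those then higher, and among those lower were WDFY3-AS2 (log2 -0.80, edgeR adjusted p = 0.0027), FRMD6-AS1 (-0.58, edgeR adjusted p = 0.022) and SGMS1-AS1 (-0.48, edgeR adjusted p = 0.0053). Of these ZMIZ1-AS1, WDFY3-AS2 and SGMS1-AS1 were named after their values were seen. Without the block, the count was 3 without replicate 1 and 2 without replicate 3 of non-specific siRNA with vehicle, beside 2.76% and 2.64% of all tested genes. It was 11 without replicate 1 and 2 without replicate 2 of non-specific siRNA with DHT, beside 7.19% and 2.24%. With PXN siRNA, DHT changed no member past the threshold in edgeR, and 0.184% of all tested genes were called. There 8 members (4.0%) had an unadjusted p under 0.05, beside 7.46% of all tested genes. The block called 2, beside 1.87% of all tested genes, CTBP1-AS (log2 0.58 ± 0.11, SE, edgeR adjusted p = 0.015) and RAB6C-AS1 (0.45 ± 0.094, SE, edgeR adjusted p = 0.022). DESeq2's Wald test called 1, beside 0.774% of all tested genes, and limma-voom called none, beside 0.130%.

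Ratios of antisense to sense changed with DHT in 5 pairs with non-specific siRNA, beside 2.05% of all 440 pairs, and in 1 pair with PXN siRNA, beside 0.227%. The 440 include the members' pairs: the 2.05% is 9 pairs with these 5 among them, and the 0.227% is that 1 pair itself. The 5 were FAM13A-AS1, CTBP1-AS, ARHGEF26-AS1, SVIL-AS1 and TAPT1-AS1, the last 2 named after their values were seen. ARHGEF26 rose with DHT, from 219.8, 230.5 and 226 CPM to 366, 392 and 417 CPM with non-specific siRNA and from 62.1, 104 and 76 CPM to 118, 163 and 146 CPM with PXN siRNA. ARHGEF26-AS1 measured 12.4, 10.8 and 11.3 CPM and 9.62, 9.24 and 10.04 CPM, then 15.6, 14.9 and 17.3 CPM and 14.6, 14.6 and 13.8 CPM, in the same order. Its own changes of -0.25 ± 0.087 and -0.15 ± 0.084 (SE) did not pass, and the ratio fell by 1.04 ± 0.17 (limma adjusted p = 0.00296) and 0.97 ± 0.17 (limma adjusted p = 0.0096). The ratios of SVIL-AS1 and TAPT1-AS1 rose, by 0.49 ± 0.12 and 0.62 ± 0.15 (SE, limma adjusted p = 0.0386 for both), where SVIL and TAPT1 fell by 0.52 ± 0.087 and 0.62 ± 0.074 (SE). The count of 5 was 12 with the replicate block, 2 without replicate 3 of non-specific siRNA with vehicle, and 3 without its replicate 1 or any replicate of non-specific siRNA with DHT. The single pair with PXN siRNA, ARHGEF26-AS1, was no longer called without replicate 1 or 3 of PXN siRNA with vehicle or replicate 2 or 3 of PXN siRNA with DHT, which left 0 pairs.

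Whether PXN siRNA altered the response to DHT was tested as an interaction. No member passed, and 0.0% of all tested genes were called. An unadjusted p under 0.05 was seen for 7 members (3.5%) and for 4.21% of all tested genes. The smallest unadjusted p values were 0.0118 for NIFK-AS1, 0.0208 for FRMD6-AS1 and 0.0252 for SEMA6A-AS1, with interaction terms of 0.45 ± 0.16, 0.64 ± 0.25 and 0.71 ± 0.28 (log2, SE, edgeR), each with an adjusted p that rounds to 1.00. FRMD6-AS1 measured 4.37, 3.06 and 3.8 CPM with non-specific siRNA and vehicle and 3.26, 2.02 and 2.23 CPM with DHT, against 3.79, 3.66 and 4.08 CPM and 3.91, 4.1 and 4.06 CPM with PXN siRNA. A difference between the DHT responses of FAM13A-AS1 (-0.85 ± 0.50, unadjusted p = 0.114) or CTBP1-AS (-0.30 ± 0.27, unadjusted p = 0.292) was therefore not shown by edgeR, which is not evidence that they were equal.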

How the data were processed

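RNA was measured by stranded mRNA sequencing in 12 LNCaP libraries, 3 in each of 4 groups assigned from the labels. The values are raw read counts per gene symbol as the authors deposited them. The submitters' processing notes name Trimmomatic 0.32, STAR 2.4.2a, Subread 1.5.0p3 with featureCounts, and GRCh38. Annotation, strand setting and the independence of replicate cultures are not given in the sources used. P-values therefore measure the spread between these libraries, which may be technical. Library totals were 34321000 to 38633456 counts, and every replicate pair differed by more than sampling noise (chi-square per gene 4.26 to 17.6).

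Genes were filtered with filterByExpr, which left out 17669 of 36137 and kept 18468. They were scaled by TMM and tested with edgeR 4.0.16 (R 4.3.3): quasi-likelihood fit with 4 group means over 12 libraries, 8 residual degrees of freedom, Benjamini-Hochberg adjustment over all tested genes. SE is the absolute log2 change over the square root of F. Antisense-to-sense ratios were tested with limma 3.58.1 on log2(CPM + 0.5) over 440 pairs. This scale understates changes of low genes, so a ratio of a low and a higher gene can shift either way. Both scripts were tested on simulated data. Alternatives were DESeq2 1.42.0, limma-voom, other scalings, filters, thresholds and pseudocounts, a replicate block and leaving out each library. Positions are GENCODE 29, and promoter windows were read from RefSeq tables with Python 3.11.15.

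Replicate numbers were taken to pair the libraries because deviations of same-numbered libraries from their group means correlated. The correlations were 0.187 to 0.304 in vehicle groups and 0.125 to 0.395 in DHT groups, and 0.284 to 0.503 between the groups with non-specific siRNA and 0.152 to 0.439 between those with PXN siRNA. Over all 6 pairs of groups, which the interaction uses, the lowest was 0.000479, so that the numbers were not taken to pair libraries for the interaction. The replicate block fitted 1 effect per replicate number, shared by all 4 groups, in every contrast over the 12 libraries. Calls made with the block thus rest on a pairing that did not hold for every pair of groups. The pairing comes from the numbers in the labels.

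Members and gene lists were chosen with earlier results of these data known. The genes named are PXN-AS1, the 5 largest by count sum, up to 6 largest rises and 6 largest falls per contrast among called members with at least 1 CPM and groups that do not overlap, up to 3 per list by smallest p, up to 4 opposite pairs and 4 ratios per contrast and direction, and the 3 smallest p for the interaction. Some named items are not reported here.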

Additional observations from a re-analysis of the deposited data

How the results depend on the processing

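Of the values of named members under other settings, 627 kept direction and status (called or not) when a method was changed, and 25 lost the call. When 1 library was left out, 831 kept both and 45 lost the call. None reversed. These counts include the interaction terms of NIFK-AS1, FRMD6-AS1 and SEMA6A-AS1, which were never called. The other values belong to members named for their calls, and the fits include those without a library outside the 2 groups compared. At an adjusted p under 0.01, 59 members (29.5%) were called for PXN siRNA under vehicle, 33 of them higher. Of all tested genes 37.2% were then called, and 43.9% of these calls were higher. At that threshold opposite pairs were 10 under vehicle and 8 under DHT, and same-direction pairs were 24 under DHT. For DHT with non-specific siRNA 2 members were then called, beside 2.20% of all tested genes. For that contrast DESeq2's Wald test called 11, beside 6.32% of all tested genes, and the replicate block 18, beside 12.1%. For DHT with PXN siRNA, DESeq2's Wald test called 1, beside 0.774% of all tested genes. There the fit with no low-count filter called 2, beside 0.520%, and the replicate block 2, beside 1.87%. Ratio calls for DHT with non-specific siRNA were 8 with a pseudocount of 2 CPM and 12 with the replicate block. The replicate block took the call from no named member. It called 115 members for PXN siRNA under vehicle and 117 under DHT, including all 92 and 94 called without it, beside 57.5% and 58.9% of all tested genes. For the interaction no member was called in any setting run. Over all genes the interaction had 58 calls with the replicate block, 37 with DESeq2's Wald test, 35 with no low-count filter and 45 without replicate 1 of non-specific siRNA with DHT, at most 1 in each other setting, and 0 in the fit reported. The cause of these moves was not tested.

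With 1 library left out, calls for PXN siRNA ranged from 71 to 95 under vehicle (38 to 57 higher, 33 to 44 lower) and from 73 to 98 under DHT (42 to 58 higher, 31 to 40 lower). In these fits 41.4 to 49.8% of all tested genes were called under vehicle and 43.7 to 52.4% under DHT. Same-direction pairs ranged from 29 to 37 and from 29 to 41, and opposite pairs from 12 to 25 and from 12 to 26. Calls for DHT ranged from 2 to 11 with non-specific siRNA and from 0 to 1 with PXN siRNA, beside 2.20 to 7.19% and 0.0529 to 0.423% of all tested genes. Ratio calls ranged from 69 to 93 and from 79 to 98 for PXN siRNA, and from 2 to 7 and from 0 to 1 for DHT. Most members lie below 10 CPM, and the part of their level in these ranges was not tested.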
